A study of Macaca mulatta with 16 samples.

Results

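The lung genes described here make, package and recycle pulmonary surfactant. They were the surfactant proteins SFTPA1, SFTPB, SFTPC and SFTPD, the lamellar body proteins ABCA3 and LAMP3, the phospholipid enzyme LPCAT1, the phosphate transporter SLC34A2, and the proteases NAPSA and CTSH. Each was taken by its symbol and matched 1 row, so 10 of the 22515 genes in the count table are reported. Bulk polyA RNA sequencing of the left lung had been done in 16 fetal rhesus macaques of 5 groups, 1 library per animal. The 4 preterm control fetuses had no intervention and were delivered at 131 to 135 days of gestation. The 4 animals of the LPS 16h group received 1 mg of lipopolysaccharide (LPS), the endotoxin of bacterial walls, into the amniotic fluid and were delivered 16 hours later at 130 or 131 days. The 3 animals of the LPS 5d group received the same 1 mg and were delivered after 5 days at 131 to 134 days. In the 3 LPS + Beta-Ac 5d animals the dam also received 0.125 mg/kg of betamethasone-acetate, a slowly released glucocorticoid, by intramuscular injection, and delivery was 5 days later at 131 or 132 days. The 2 term control fetuses were untreated and were delivered at 156 and 157 days.

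Several features limit these groups as a model. The LPS was a single injection and not an ongoing infection, the betamethasone dose was low, the controls were not injected with saline, and animals given betamethasone alone were not analysed here. There were also only 2 term animals. In whole lung tissue, a change in the share of alveolar type 2 cells and a change in RNA per type 2 cell cannot be told apart.

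Surfactant is a film of phospholipid and protein that lowers surface tension in the alveoli, and it is made by alveolar type 2 cells, which store it in lamellar bodies before secretion. SFTPB and SFTPC are small hydrophobic proteins that spread the film and are cut from larger precursors inside the cell, partly by NAPSA and CTSH. SFTPA1 and SFTPD are collectins, which bind microbes as well as surfactant. ABCA3 pumps phospholipid into the lamellar body, LAMP3 lies in its membrane, LPCAT1 makes the saturated phosphatidylcholine it holds, and SLC34A2 takes phosphate back from the airspace. Type 2 cells gain these products late in gestation, and both glucocorticoids and intraamniotic inflammation are known to speed this in animals.

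Levels are given as CPM, counts relative to the library total after scaling between libraries, and a fold change is on a log2 scale from a limma fit to all 16 animals. A gene was called when its Benjamini-Hochberg adjusted p, over 19199 tested genes, was under 0.05 and its change was at least 2-fold. All 10 members passed the filter on low counts, and the lowest count of any member in any animal was 790. The LPS 16h libraries were deeper, at 30596371 to 48052891 counts, than the others, at 20169363 to 28348816. All comparisons with preterm control share the same 4 control animals. The files used here give no transcript lengths, so levels were compared between animals and not between genes. The tissue label held: pan-epithelial markers summed to 545 to 1110 CPM over the 16 animals, mesenchymal markers to 7300 to 19800 CPM, and every library held SFTPC.

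**Figure D1:**
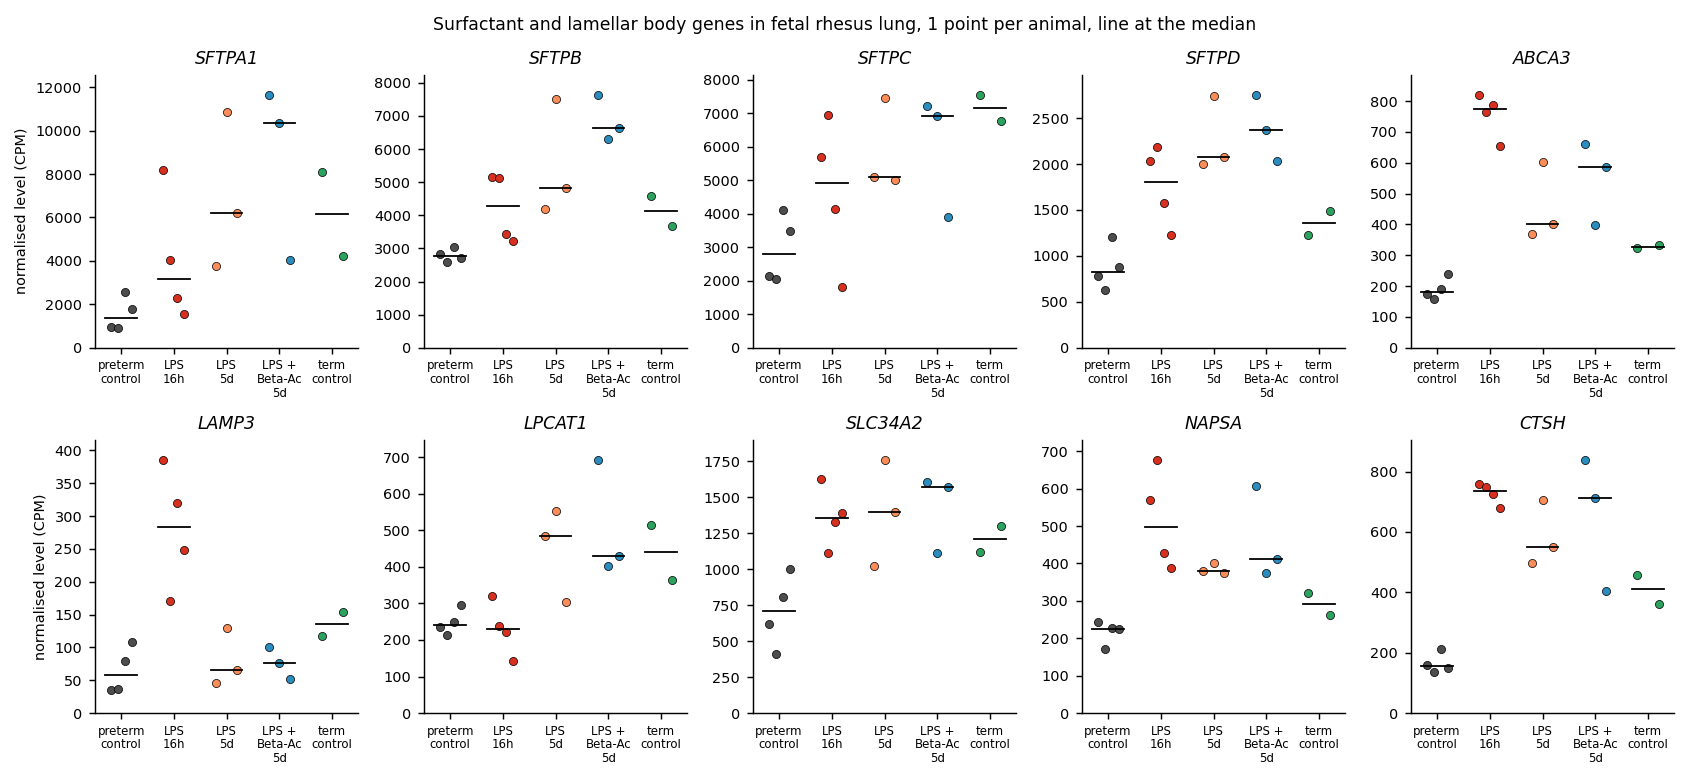
Normalised level of each member gene in CPM (y axis from 0) by group (x axis), with 1 point per animal and a line at the group median. ABCA3, LAMP3 and CTSH had their highest group median in LPS 16h, whereas SFTPA1, SFTPB and SFTPD had theirs in LPS + Beta-Ac 5d, and SFTPA1 ran from 929.6 to 11650 CPM.

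Of the hydrophobic proteins, SFTPB was steady in the preterm controls, at 2831, 2583, 3051 and 2700 CPM. It was 5159, 5123, 3434 and 3217 CPM in the LPS 16h animals, 4186, 7502 and 4821 CPM in the LPS 5d animals, 7640, 6316 and 6639 CPM in the LPS + Beta-Ac 5d animals, and 4577 and 3663 CPM at term. Every treated or term animal was above every preterm control. The change against preterm control was called only with LPS + Beta-Ac, at a log2 fold change of 1.30 ± 0.20 (SE, adjusted p = 0.000564), a 2.46-fold difference. With LPS alone the adjusted p was also under 0.05, but the change was under 2-fold (0.57 ± 0.19, adjusted p = 0.0261 at 16 hours, and 0.94 ± 0.20, adjusted p = 0.00647 at 5 days). Leaving out LPS 5d animal 239 or 242 took the 5-day change over the 2-fold limit, at 1.11 and 1.01. Over all fits with 1 animal left out, the 5-day change ran from 0.69 to 1.11 (adjusted p from 0.008 to 0.0449).

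SFTPC, which only type 2 cells make in quantity, was not called in any comparison. Its levels were 2134, 2060, 4108 and 3468 CPM in the preterm controls and 5696, 6932, 4135 and 1797 CPM in the LPS 16h animals. They were 5083, 7446 and 4990 CPM in LPS 5d, 7207, 6909 and 3892 CPM in LPS + Beta-Ac 5d, and 7546 and 6749 CPM at term. The LPS 5d and term animals were all above the preterm controls, but the LPS 16h range spanned the control range, and 1 LPS + Beta-Ac 5d animal lay inside it. The log2 fold change was 0.56 at 16 hours (95% interval -0.23 to 1.35, adjusted p = 0.254), 1.03 at 5 days (0.18 to 1.88, adjusted p = 0.102), 1.04 with LPS + Beta-Ac (0.19 to 1.89, adjusted p = 0.09) and 1.34 at term (0.38 to 2.31, adjusted p = 0.115). Fitted with only the LPS 5d and preterm control animals, the 5-day change was called (1.06, adjusted p = 0.0427). Without LPS 16h animal 038, the lowest of its group, the 16-hour change was 0.96 with an adjusted p of 0.019, still under 2-fold. Other animals left out weakened the changes. Over all fits with 1 animal left out, the 16-hour change ran from 0.34 to 0.96 (adjusted p from 0.019 to 0.518). The 5-day change ran from 0.84 to 1.21 (adjusted p from 0.0831 to 0.307). That with LPS + Beta-Ac ran from 0.88 to 1.33 (adjusted p from 0.059 to 0.26).

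SFTPA1 had the widest range of the 10 genes. It was 956, 929.6, 2570 and 1793 CPM in the preterm controls, 8189, 4047, 2297 and 1568 CPM in LPS 16h, 3786, 10850 and 6223 CPM in LPS 5d, 11650, 10340 and 4052 CPM in LPS + Beta-Ac 5d, and 8086 and 4203 CPM at term. All 5-day and term animals exceeded all preterm controls, while the LPS 16h animals overlapped them. SFTPA1 was called at 5 days after LPS (2.16 ± 0.58, adjusted p = 0.0246) and with LPS + Beta-Ac (2.47 ± 0.58, adjusted p = 0.0103), which were 4.46-fold and 5.54-fold. It was not called at 16 hours (1.22 ± 0.54, adjusted p = 0.0933) or at term (2.04 ± 0.66, adjusted p = 0.108). The 5-day call was lost without preterm control 092 or 101 or LPS 5d animal 240 or 242 (adjusted p from 0.0629 to 0.121), the LPS + Beta-Ac call was lost without animal 248 (adjusted p = 0.055), and the 16-hour change was called without animal 038 (1.58, adjusted p = 0.0398). In the human genome SFTPA1 has a near-identical copy, SFTPA2. The symbol SFTPA2 does not occur among the named rows, and whether an unnamed row shares reads with SFTPA1 was not tested.

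SFTPD, the other collectin, was more even within groups. Its levels were 777, 627.5, 1210 and 878 CPM in the preterm controls, 2035, 2188, 1578 and 1223 CPM in LPS 16h, 1998, 2739 and 2079 CPM in LPS 5d, 2754, 2371 and 2030 CPM in LPS + Beta-Ac 5d, and 1231 and 1488 CPM at term. Every animal of the other 4 groups was above the highest preterm control, the lowest of them by a narrow margin. SFTPD rose after LPS at 16 hours (1.01 ± 0.21, adjusted p = 0.00135), at 5 days (1.41 ± 0.22, adjusted p = 0.00104) and with LPS + Beta-Ac (1.48 ± 0.22, adjusted p = 0.000472), and was not called at term (0.67 ± 0.26, adjusted p = 0.158). The 16-hour change was at the 2-fold limit, and it fell to between 0.87 and 0.97, with an adjusted p of at most 0.00587, without preterm control 092 or 101 or LPS 16h animal 026 or 029.

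ABCA3 had its highest levels at 16 hours. It was 175, 159.5, 190.1 and 239.5 CPM in the preterm controls and 821, 765, 786 and 655 CPM in the LPS 16h animals, then 369, 604 and 402 CPM in LPS 5d and 662, 399.5 and 586 CPM in LPS + Beta-Ac 5d, and 324 and 332 CPM at term. No animal of another group fell within the preterm control range, and the LPS 16h and LPS 5d ranges were also apart. ABCA3 rose 4.0-fold at 16 hours (2.00 ± 0.18, adjusted p = 4.76e-07), 2.37-fold at 5 days (1.25 ± 0.19, adjusted p = 0.000822) and 2.85-fold with LPS + Beta-Ac (1.51 ± 0.19, adjusted p = 0.000118). The term difference was 1.74-fold and was not called (0.80 ± 0.22, adjusted p = 0.0552).

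LAMP3 was high at 16 hours, and at 5 days its levels overlapped those of the preterm controls. Its levels were 35.1, 36.5, 78.7 and 109 CPM in the preterm controls and 385, 170.0, 320.1 and 248 CPM in LPS 16h. They were 45.2, 129 and 65.9 CPM in LPS 5d, 100.5, 76.3 and 52.5 CPM in LPS + Beta-Ac 5d, and 117 and 154 CPM at term. The LPS 16h animals were above all 12 others. LAMP3 rose 4.66-fold at 16 hours (2.22 ± 0.41, adjusted p = 0.000693), and this was 2.92 on the log2 scale with gestational age at delivery as a covariate among the preterm deliveries. It was not called at 5 days (0.34, 95% interval -0.61 to 1.28), with LPS + Beta-Ac (0.36, -0.58 to 1.30) or at term (1.22, adjusted p = 0.197). LAMP3 is also known as a marker of mature dendritic cells. Of 7 other markers of those cells, 4 were called higher at 16 hours, 2 at 5 days and 3 with LPS + Beta-Ac, against 8.3%, 2.6% and 4.05% of the 19199 tested genes. CD83, CCL22, CCR7 and CCL19 were those at 16 hours, CCL19 running from 0.0709 to 0.218 CPM in the preterm controls and from 71.1 to 173 CPM in LPS 16h. At the same time FSCN1 was lower by less than 2-fold (-0.87, adjusted p = 0.000609). FLT3 (-0.48, adjusted p = 0.156) and CD1C (0.45, adjusted p = 0.342) were not called. The 7 markers summed to 224 to 297 CPM in preterm controls and 338 to 393 CPM in LPS 16h, and their part in the LAMP3 result was not tested.

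LPCAT1 followed another course. Its levels were 235, 213, 249 and 296 CPM in the preterm controls, 319, 237, 221 and 144 CPM in LPS 16h, 485, 552 and 303 CPM in LPS 5d, 693, 403 and 429 CPM in LPS + Beta-Ac 5d, and 514 and 365 CPM at term. The LPS 16h range enclosed the preterm range, and all 5-day and term animals were above the preterm controls. At 16 hours the log2 fold change was -0.155 (95% interval -0.69 to 0.38, adjusted p = 0.661), and its sign turned with gestational age as a covariate (0.13). At 5 days it was 0.81 ± 0.27 (adjusted p = 0.0571), and it was called without LPS 5d animal 242 (1.07, adjusted p = 0.0254). With LPS + Beta-Ac it was 0.998 ± 0.27 (adjusted p = 0.019), which is just under 2-fold and passed the limit under another scaling of the libraries (1.03) and with gestational age as a covariate (1.22). It was also called, at 1.004 to 1.17, without preterm control 113 or 209 or LPS + Beta-Ac animal 249 or 255. Other animals left out weakened it. Over all fits with 1 animal left out it ran from 0.75 to 1.17 (adjusted p from 0.0186 to 0.107). The 5-day change after LPS alone ran from 0.64 to 1.07 in the same way (adjusted p from 0.0254 to 0.231). At term it was 0.81 ± 0.30 (adjusted p = 0.156).

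SLC34A2 was 615, 407, 807 and 998 CPM in the preterm controls, 1624, 1112, 1324 and 1386 CPM in LPS 16h, 1020, 1757 and 1393 CPM in LPS 5d, 1604, 1109 and 1567 CPM in LPS + Beta-Ac 5d, and 1119 and 1302 CPM at term. The groups did not overlap the preterm controls, although the lowest LPS 5d animal was close to the highest of them. The log2 fold changes stood near the 2-fold limit throughout, at 1.01 ± 0.24 at 16 hours (adjusted p = 0.00421), 1.02 ± 0.26 at 5 days (adjusted p = 0.0174) and 1.07 ± 0.26 with LPS + Beta-Ac (adjusted p = 0.0108), all called, and 0.85 ± 0.30 at term (adjusted p = 0.127). Leaving out 1 animal at a time gave 0.77 to 1.20 at 16 hours, 0.78 to 1.22 at 5 days and 0.83 to 1.27 with LPS + Beta-Ac. The 16-hour call was lost without preterm control 092 or 101 or LPS 16h animal 026 or 038, and the 5-day call without preterm control 092 or 101 or LPS 5d animal 240 or 242, and with only the groups compared (adjusted p = 0.0702). The LPS + Beta-Ac call was lost without preterm control 101 or LPS + Beta-Ac animal 248 or 255, and the term difference was called without preterm control 209 (1.04, adjusted p = 0.0415).

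The proteases differed in size of change. NAPSA was 244, 171, 227 and 223 CPM in the preterm controls, 569.5, 676.5, 427 and 387 CPM in LPS 16h, 381, 400.3 and 374 CPM in LPS 5d, 606, 373 and 413 CPM in LPS + Beta-Ac 5d, and 321 and 261 CPM at term. All other groups were above the preterm controls. NAPSA rose 2.34-fold at 16 hours (1.23 ± 0.18, adjusted p = 9.11e-05) and 2.12-fold with LPS + Beta-Ac (1.08 ± 0.20, adjusted p = 0.00166), the latter falling to 0.97 without preterm control 101 and to 0.87 without LPS + Beta-Ac animal 248. At 5 days after LPS alone its change was 1.80-fold and under the limit (adjusted p = 0.0105), and at term it was 1.35-fold (adjusted p = 0.323).

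CTSH was the only member called in all 4 comparisons with preterm control. Its levels were 161, 135, 213.5 and 149 CPM in the preterm controls, 759, 749, 726 and 678 CPM in LPS 16h, 496, 707 and 551 CPM in LPS 5d, 838, 712 and 403 CPM in LPS + Beta-Ac 5d, and 456.5 and 362 CPM at term. Every animal of the other groups was above the highest preterm control. CTSH rose 4.49-fold at 16 hours (2.17 ± 0.20, adjusted p = 6.94e-07), 3.57-fold at 5 days (1.84 ± 0.22, adjusted p = 0.000292), 3.84-fold with LPS + Beta-Ac (1.94 ± 0.22, adjusted p = 4.05e-05) and 2.51-fold at term (1.33 ± 0.24, adjusted p = 0.0101). The term call was lost without term animal 200 (1.16, adjusted p = 0.114). CTSH is also expressed in macrophages. Of 9 macrophage markers, 6 were called higher at 16 hours, 4 at 5 days, 8 with LPS + Beta-Ac and 0 at term, against 8.3%, 2.6%, 4.05% and 1.11% of all tested genes. They summed to 78.5 to 127 CPM in preterm controls, 229 to 385 CPM in LPS 16h, 166 to 233 CPM in LPS 5d, 347 to 658 CPM in LPS + Beta-Ac 5d and 135 to 281 CPM at term, while MARCO had no counts in the preterm controls. Their part in the CTSH result was not tested.

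**Figure D2:**
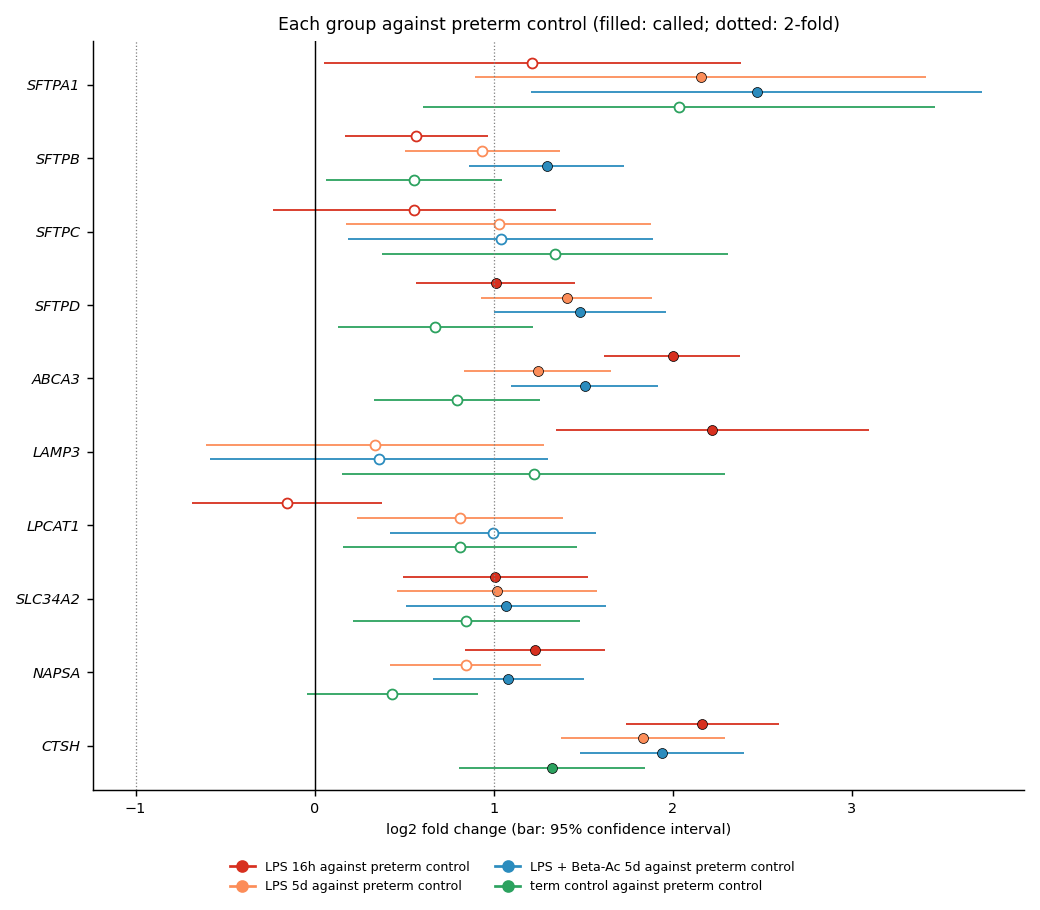
Log2 fold change (x axis) of each member against preterm control for LPS 16h, LPS 5d, LPS + Beta-Ac 5d and term control, with bars for the 95% confidence interval, filled points for called genes and dotted lines at 2-fold. CTSH is filled in all 4 comparisons, LAMP3 only at 16 hours, and SFTPC and LPCAT1 in none.

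Taken by comparison, the first question was what intraamniotic LPS alone did to these genes. At 16 hours 6 of 10 members were called higher (SFTPD, ABCA3, LAMP3, SLC34A2, NAPSA and CTSH) and 0 lower, against 8.3% of the 19199 tested genes called higher and 6.07% called lower. The members' median log2 fold change was 1.11, beside -0.09 for all tested genes. At 5 days 5 of 10 were called higher (SFTPA1, SFTPD, ABCA3, SLC34A2 and CTSH), against 2.6% of all tested genes, and the members' median was 1.02 beside -0.00174. The 5-day count was 3 without preterm control 092 or 101 or LPS 5d animal 240, since SFTPA1 and SLC34A2 were then not called. Animal 240 had the highest level of its group for all 10 members. The 16-hour count was 4 without preterm control 092 or 101 or LPS 16h animal 026.

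With LPS + Beta-Ac, 7 of 10 members were called higher, against 4.05% of all tested genes, and their median was 1.19 beside -0.01. The members not called were SFTPC, LPCAT1 and LAMP3. The count was 4 without LPS + Beta-Ac animal 248, the animal with the highest level of its group for all 10 members. At term 1 of 10 was called higher, against 1.11% of all tested genes. The members' median was 0.83 beside -0.00885, all 10 were above preterm control, and 9 had an unadjusted p under 0.05, as had 18.9% of all tested genes in either direction. With 2 term animals the intervals were wide, the widest being that of SFTPA1 (0.61 to 3.46).

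The LPS 16h and LPS 5d animals were also compared directly. LAMP3 was 3.69-fold higher at 16 hours than at 5 days (1.88 ± 0.44, adjusted p = 0.0042), and it was the 1 of 10 members called, a share not above that of all tested genes, of which 8.02% were called higher and 6.61% lower. ABCA3 was 1.69-fold higher at 16 hours (0.75 ± 0.19, adjusted p = 0.00656), and LPCAT1 was lower at 16 hours (-0.97 ± 0.27, adjusted p = 0.0115), neither passing 2-fold. LPCAT1 passed it, at -1.001 to -1.23, without LPS 16h animal 026 or 029 or LPS 5d animal 242. All 4 surfactant proteins had lower fitted means at 16 hours than at 5 days, at -0.37 to -0.94 on the log2 scale, with adjusted p from 0.18 to 0.391. SLC34A2 differed by -0.01 (95% interval -0.57 to 0.55). The SFTPA1 interval was the widest, from -2.20 to 0.32.

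**Figure D3:**
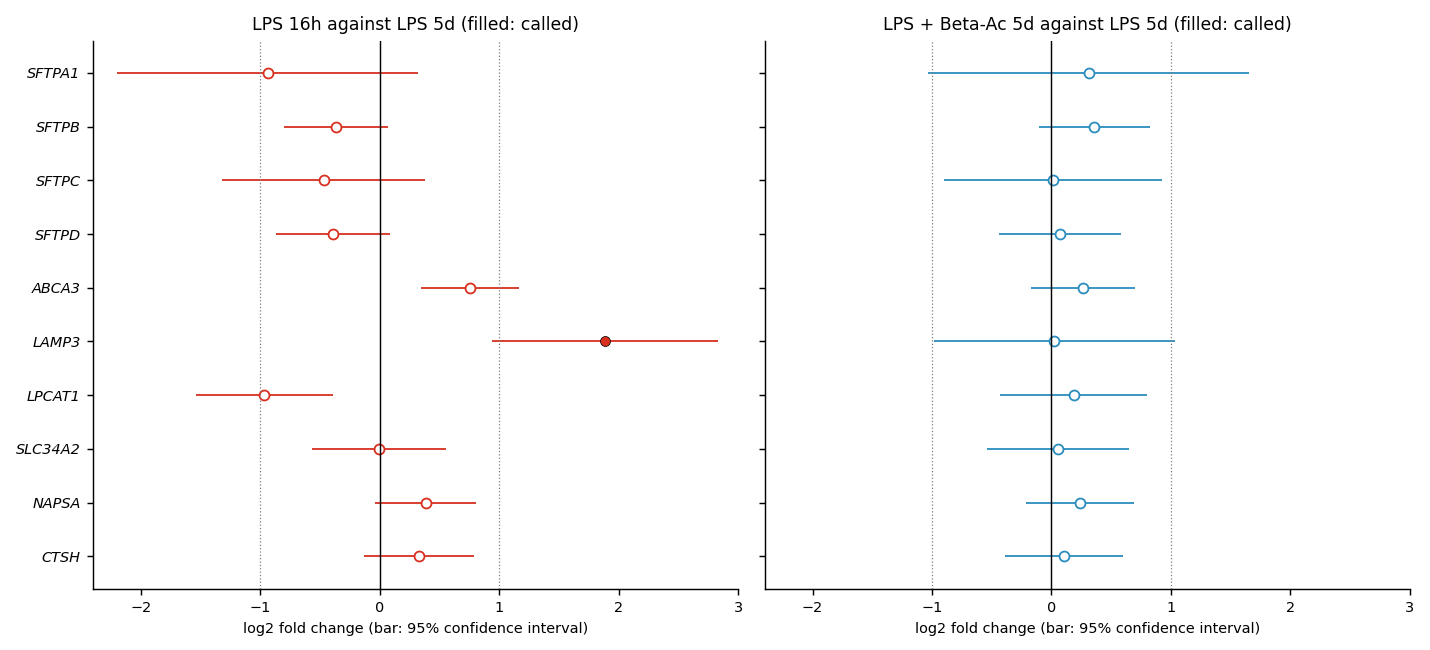
Log2 fold change (x axis) of each member in LPS 16h against LPS 5d (left) and in LPS + Beta-Ac 5d against LPS 5d (right), with 95% confidence intervals and dotted lines at 2-fold. In the left panel LAMP3 alone is filled, as called, and the intervals of ABCA3 and LPCAT1 also leave out 0, whereas in the right panel all 10 intervals include 0.

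The added betamethasone was tested against LPS alone at the same 5 days. All 10 members had a higher fitted mean with LPS + Beta-Ac, by 0.01 to 0.36 on the log2 scale, with a median of 0.145 beside -0.000522 for all tested genes. The 10 differences come from the same animals and are not separate observations. Without LPS 5d animal 239 the sign turned for SFTPA1, SFTPC, SFTPD, LAMP3, CTSH and SLC34A2. Without LPS + Beta-Ac animal 248 it turned for SFTPC, SFTPD, LPCAT1, LAMP3, CTSH and SLC34A2. By limma, 0 of 10 were called, against 0.104% of all tested genes called higher, and 0 had an unadjusted p under 0.05, against 4.82% of all tested genes in either direction. Every adjusted p was 1.0. The highest difference was that of SFTPB (0.36, 95% interval -0.10 to 0.82). The intervals of 8 members lay within 2-fold in both directions. Those of SFTPA1 (-1.035 to 1.66) and LAMP3 (-0.99 to 1.03) did not.

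Against term control, 0 members were called in LPS 5d by limma, against 0.0313% of all tested genes called higher. An unadjusted p under 0.05 was found for 1 of 10 (SFTPD, 0.73, adjusted p = 0.323), a share near the 11% of all tested genes with one in either direction. In LPS + Beta-Ac 5d 0 were called, against 0.375% of all tested genes called higher, and 5 had an unadjusted p under 0.05, against 14.4% of all tested genes with one in either direction. Those 5 were SFTPB (0.74, 95% interval 0.22 to 1.26), SFTPD (0.81, 0.23 to 1.38), ABCA3 (0.71, 0.22 to 1.20), NAPSA (0.65, 0.14 to 1.15) and CTSH (0.61, 0.06 to 1.16), with adjusted p from 0.168 to 0.294. SFTPC and LAMP3 had the opposite sign, at -0.30 and -0.86 with LPS + Beta-Ac and -0.32 and -0.89 with LPS alone. All of these intervals included 0.

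The order of the groups therefore differed between members. By mean level, LPS 16h came first for ABCA3, LAMP3, NAPSA and CTSH, LPS + Beta-Ac 5d for SFTPA1, SFTPB, SFTPD, LPCAT1 and SLC34A2, and term control for SFTPC. Groups next to each other in this order overlapped, except in the steps from term control down to preterm control for SFTPB, SFTPD, ABCA3, LPCAT1, NAPSA, CTSH and SLC34A2, from LPS 5d down to term control for ABCA3, NAPSA and CTSH, and from LPS 16h down to term control for LAMP3.

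**Figure D4:**
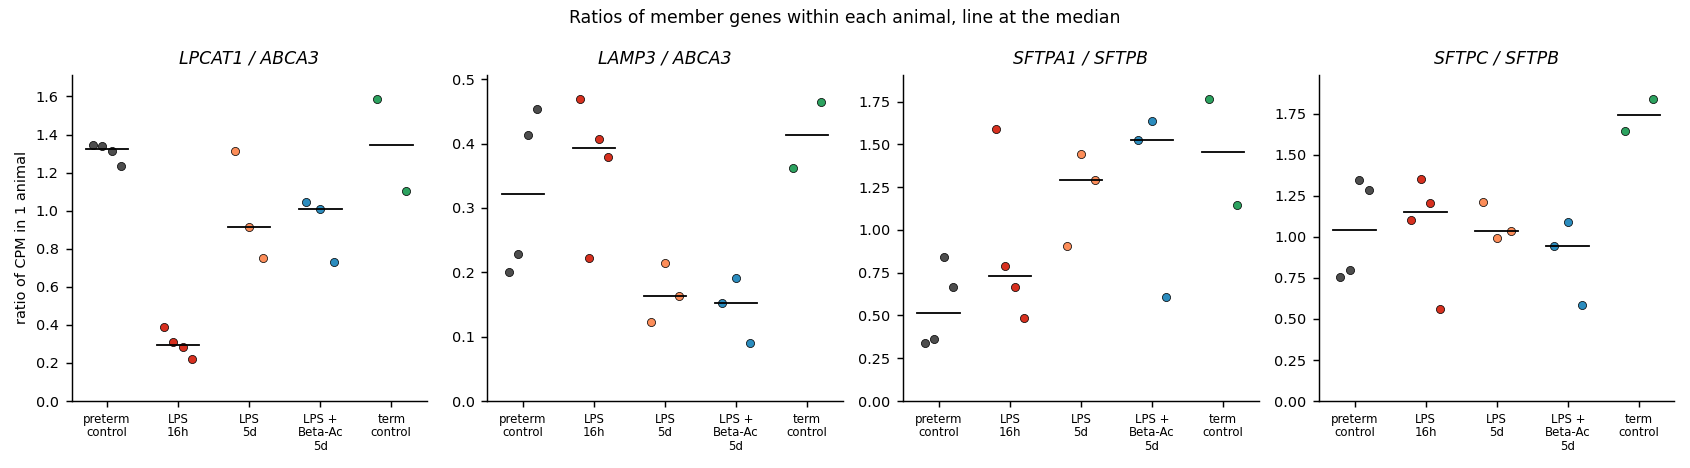
Ratio of the CPM of 2 member genes within each animal (y axis from 0) by group (x axis), with 1 point per animal and a line at the group median. LPCAT1 over ABCA3 ran from 1.24 to 1.34 in the preterm controls and from 0.219 to 0.389 in LPS 16h.

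Ratios within an animal show unequal change and do not depend on the scaling between libraries. LPCAT1 over ABCA3 was 1.24 to 1.34 in the preterm controls, 0.219 to 0.389 in LPS 16h, 0.754 to 1.31 in LPS 5d, 0.732 to 1.05 in LPS + Beta-Ac 5d and 1.10 to 1.59 at term. The LPS 16h animals thus stood below all others. LAMP3 over ABCA3 was lowest at 5 days, at 0.123 to 0.214 in LPS 5d and 0.0896 to 0.191 in LPS + Beta-Ac 5d, beside 0.201 to 0.454 in the preterm controls and 0.362 to 0.465 at term. SFTPC over SFTPB was 1.65 to 1.84 in the 2 term animals and at most 1.35 in the animals of any other group. SFTPA1 over SFTPB was 0.338 to 0.842 in the preterm controls, 0.905 to 1.45 in LPS 5d and 1.15 to 1.77 at term, with wider ranges in LPS 16h (0.487 to 1.59) and LPS + Beta-Ac 5d (0.61 to 1.64).

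The spread between animals of a group was uneven. The pooled within-group SD on the log2 scale was 0.84 for SFTPA1, 0.637 for LAMP3 and 0.579 for SFTPC, and 0.274 to 0.393 for the others, with a median of 0.281 over all tested genes. The SFTPA1 value was above that of 92.6% of tested genes. In the preterm controls, the fetuses delivered at 135 days (113 and 209) had higher SFTPA1, SFTPC, SFTPD, ABCA3, LAMP3, LPCAT1 and SLC34A2 than those delivered at 131 and 133 days (101 and 092), which is a description of 4 animals and was not tested. The 10 members summed to 7321 to 12700 CPM in the preterm controls, 11300 to 25560 CPM in LPS 16h, 17850 to 32680 CPM in LPS 5d, 20060 to 33760 CPM in LPS + Beta-Ac 5d and 18880 and 24290 CPM at term.

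**Figure D5:**
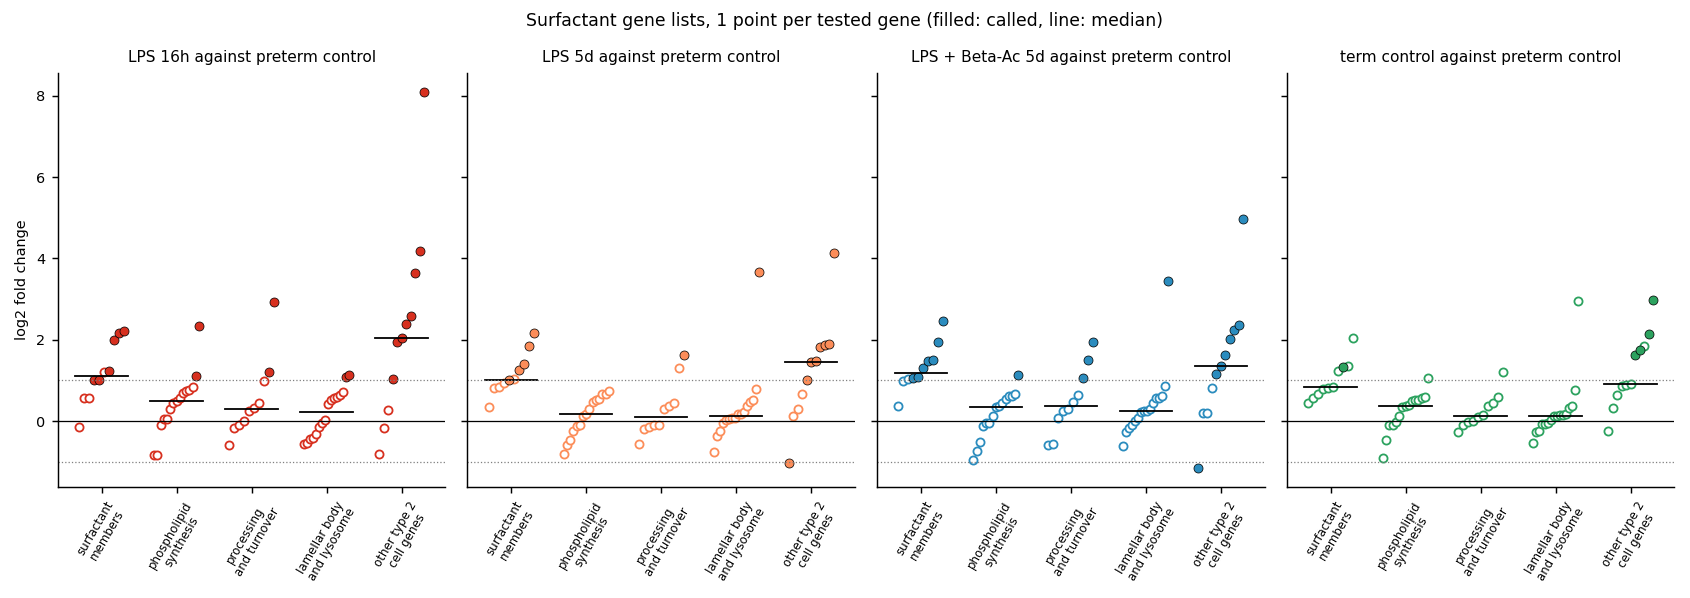
Log2 fold change against preterm control (y axis) of every tested gene in the members' list and 4 related lists (x axis), with 1 panel per group, filled points for called genes, a line at each list's median and dotted lines at 2-fold. The medians of the phospholipid, turnover and lamellar body lists lie between 0.105 and 0.482 in all panels, below those of the members and of the other type 2 cell genes.

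Other genes of the surfactant pathway were read as 4 lists, against 8.3%, 2.6%, 4.05% and 1.11% of all tested genes called higher at 16 hours, at 5 days, with LPS + Beta-Ac and at term. Of 15 tested genes of phospholipid synthesis, 2 were called higher at 16 hours, 0 at 5 days, 1 with LPS + Beta-Ac and 0 at term, with 0 called lower in each, so the counts were near those shares. Those at 16 hours were SCD, which desaturates fatty acids (2.33, adjusted p = 4.73e-06, from 28.6 to 36.2 CPM in preterm controls to 86.7 to 242 CPM), and LPIN1, a phosphatidate phosphatase (1.12, adjusted p = 0.00116). The 1 with LPS + Beta-Ac was SREBF1, a transcription factor of lipid synthesis (1.13, adjusted p = 0.00124). The list's median log2 fold change was 0.482, 0.178, 0.336 and 0.361 in LPS 16h, LPS 5d, LPS + Beta-Ac 5d and term. In the same order, 11, 3, 5 and 1 of the 15 had an adjusted p under 0.05 by limma without regard to fold. Some of these were lower than in preterm control, and the share of all tested genes at that limit is not given here.

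Of 10 tested genes of surfactant processing and turnover, 2 were called higher at 16 hours, 1 at 5 days, 3 with LPS + Beta-Ac and 0 at term. CSF2RB, the shared chain of the GM-CSF receptor through which macrophages are driven to clear surfactant, rose 7.57-fold at 16 hours (2.92, adjusted p = 1.02e-07) and 2.08-fold with LPS + Beta-Ac (1.06, adjusted p = 0.00698). The adenosine receptor ADORA2B rose at 16 hours (1.20, adjusted p = 0.00106). SFTA2, a small secreted surfactant-associated protein, rose at 5 days (1.62, adjusted p = 0.012) and with LPS + Beta-Ac (1.94, adjusted p = 0.00314). PLA2G1B, a secreted phospholipase, was called with LPS + Beta-Ac (1.498, adjusted p = 0.039), its animals running from 86.4 to 424 CPM against 54.6 to 92.3 CPM in preterm controls. The list's medians were 0.285, 0.105, 0.373 and 0.125 in the same order of groups.

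Of 16 tested genes of lamellar body biogenesis and lysosomal sorting, 2 were called higher at 16 hours, 1 at 5 days, 1 with LPS + Beta-Ac and 0 at term, with medians of 0.222, 0.126, 0.249 and 0.125. At 16 hours these were the tetraspanin CD63 (1.15, adjusted p = 2.64e-05) and HPS3, a subunit of a Hermansky-Pudlak sorting complex (1.09, adjusted p = 0.000248). MLPH, which links Rab27 vesicles to myosin, was called at 5 days (3.67, 95% interval 1.60 to 5.74, adjusted p = 0.0215). It was also called with LPS + Beta-Ac (3.46, 1.39 to 5.53, adjusted p = 0.0244), and both intervals were wide. In the groups where it was not called it was uneven, from 0.902 to 24.0 CPM in LPS 16h and at 15.9 and 95.3 CPM in the term animals.

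The other genes known from type 2 cells had a higher median than the members in all 4 comparisons. Both lists were chosen with earlier results of these data known, so this comparison of medians is a description and not a test. Which cells of the lung carried these transcripts was not tested. Of 11 tested, 8 were called higher at 16 hours, 7 at 5 days, 7 with LPS + Beta-Ac and 4 at term, with medians of 2.04, 1.45, 1.35 and 0.924. At 16 hours the largest were LCN2, an iron-withholding protein of the response to bacteria (8.09 ± 0.33, adjusted p = 4.93e-10, from 5.04 to 12.1 CPM in preterm controls to 1850.0 to 2280.0 CPM), PIGR, the receptor that carries IgA across epithelium (4.19, adjusted p = 2.87e-06), the zinc transporter SLC39A8 (3.65, adjusted p = 2.74e-07) and the chemokine CXCL17 (2.59, adjusted p = 9.44e-08). LCN2 was still called at 5 days (4.14), with LPS + Beta-Ac (4.96) and at term (2.99), as were CXCL17 (1.87, 2.35 and 2.14), SLC39A8 (1.89, 2.03 and 1.76) and the kinase LRRK2 (1.45, 1.35 and 1.63). ETV5, a transcription factor of the FGF response, fell at 5 days by 1.04 on the log2 scale (adjusted p = 0.00293) and with LPS + Beta-Ac by 1.15 (adjusted p = 0.00105).

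Most markers of the neighbouring type 1 cells went the other way at 16 hours. Of 7, 5 were called lower, against 6.07% of all tested genes, with a list median of -1.34. AGER (-0.74, adjusted p = 0.0871) and PDPN (0.10, adjusted p = 0.692) were not called. By limma 0 were called at 5 days or with LPS + Beta-Ac, where 2 and 3 had an adjusted p under 0.05. At term 1 was called higher, against 1.11% of all tested genes. The 7 summed to 3930 to 4520 CPM in preterm controls, 1450 to 1710 CPM in LPS 16h, 3360 to 4370 CPM in LPS 5d, 2530 to 3890 CPM in LPS + Beta-Ac 5d and 4570 to 4850 CPM at term. Pan-epithelial markers summed to 545 to 728 CPM in preterm controls, 694 to 1110 CPM in LPS 16h, 833 to 967 CPM in LPS 5d, 695 to 939 CPM in LPS + Beta-Ac 5d and 563 to 845 CPM at term. Of 6 tested, 1 was called higher at 16 hours and 1 at 5 days, against 8.3% and 2.6% of all tested genes. Club cell markers, of which 4 were tested, were called in 0 of the 4 comparisons with preterm control by limma and ranged from 19.2 to 507 CPM in sum. Mesenchymal markers summed to 11800 to 19800 CPM in preterm controls and to at most 13600 CPM in any other animal, with 1 of 7 called lower at 16 hours, 0 at 5 days, 2 with LPS + Beta-Ac and 3 at term, against 6.07%, 2.23%, 2.44% and 0.953% of all tested genes called lower. The part of these shifts in the members' results was not tested.

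Across the 16 animals, SFTPD followed the mean standardised profile of the 10 members most closely (Pearson r = 0.941), and LAMP3 (0.515) and LPCAT1 (0.596) least. Each member is itself part of that profile, so its r cannot be set beside that of a gene outside it. Outside the members, the 10 genes most like that profile were ACSS2 (0.919), MUC1 (0.908), STXBP2 (0.904), FAM83G (0.902), VWA5A (0.896), CXCL17 (0.895), HAL (0.89), CD74 (0.884), TNS4 (0.876) and CNTRL (0.871). These r describe the same 16 libraries, which share groups and treatment, and carry no test. MUC1, a mucin of the apical membrane, ran from 122 to 136 CPM in preterm controls, 238 to 283 CPM in LPS 16h, 319 to 390.0 CPM in LPS 5d, 331 to 467 CPM in LPS + Beta-Ac 5d and 208 to 255 CPM at term.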

How the data were processed

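The authors pseudoaligned 75 bp paired-end polyA reads with kallisto to the rhesus assembly Mmul_10, summarised them to genes with tximport, and deposited whole-number counts for 22515 Ensembl genes in 16 animals. No source used here gives the versions or the annotation release. Symbols came from a table pairing 17256 of the identifiers with names. Groups came from the labels. The members and gene lists were chosen with earlier results of these data known. Libraries were scaled by trimmed mean of M-values, and genes over 0.371 CPM in at least 2 animals and with at least 15 counts in all were kept. Log2 CPM with a prior count of 2 were fitted with limma 3.58.1 (trend, robust, R 4.3.3), with 1 mean per group over all 16 animals. The fit was checked on simulated counts. Alternatives were median-of-ratios scaling, no low-count filter, a prior of 0.5, voom weights, fitting only the groups compared, gestational age as a covariate, no fold limit and leaving out each animal. Of the related lists, genes called against preterm control were named, at most 4 per list and comparison with the largest changes, and genes below a mean of 4 counts in a group were given no fold. With 1 library per animal, the spread is between animals. No promoter or protein sequence was printed and no genome was used here.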

Additional observations from a re-analysis of the deposited data

Results flagged for a closer look

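The effect of LPS differed between 16 hours and 5 days for 3 members by the direct limma test at an adjusted p under 0.05. By the same test, 3 of 10 members and 8474 of the 19199 tested genes had an unadjusted p under 0.05. The members' share was thus not above that of all tested genes. The difference of effects (16 hours minus 5 days, log2) was 1.884 for LAMP3 (adjusted p = 0.0042), 0.753 for ABCA3 (adjusted p = 0.00656) and -0.967 for LPCAT1 (adjusted p = 0.0115). LAMP3 and ABCA3 stayed under an adjusted p of 0.05 in every alternative and with each animal left out, whereas LPCAT1 reached 0.0802 among the alternatives and 0.0647 among the left-out animals. Of 20 checks for 1 animal far from its group (10 members in the 2 groups of 4), 0 passed, where chance gives about 1 in 20.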

How the results depend on the processing

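Of 510 member values under alternatives that kept all animals or left out preterm control 209 and term control 200 together (a pair chosen after seeing the data), 498 kept direction and side of the threshold. Of 510 with 1 animal left out, 443 did. Leaving out 1 animal, the members called numbered 4 to 6 at LPS 16h, 3 to 6 at LPS 5d, 4 to 8 with LPS + Beta-Ac, 0 to 2 at term (0 without 209 and 200 together) and 1 to 2 for LPS 16h against LPS 5d, where no fold limit gave 3. With all animals, no fold limit gave 7 at LPS 16h, 7 at LPS 5d, 8 with LPS + Beta-Ac and 1 at term. The cause of these shifts was not tested.

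Signs turned for values smaller than their own SE, the largest being SFTPA1 in LPS + Beta-Ac against term (0.434 ± 0.699). LPCAT1 at LPS 16h against preterm was 0.132 with gestational age as a covariate and -0.331 to 0.054 with 1 animal left out, and LAMP3 at LPS 5d was -0.076 to 0.68. For LPS 16h against LPS 5d, SLC34A2 was 0.007 under median-of-ratios scaling, 0.281 with gestational age and -0.213 to 0.179 with 1 animal left out. For LPS 5d against term, LPCAT1 was 0.004 under median-of-ratios scaling, 0.003 with only the groups compared, 0.246 without 209 and 200, and -0.248 to 0.257 with 1 animal left out, where SFTPA1 was -0.349 to 0.595 and SLC34A2 -0.018 to 0.374. For LPS + Beta-Ac against term, SFTPA1 was -0.038 to 0.913 and LPCAT1 -0.062 to 0.432. For LPS + Beta-Ac against LPS 5d, the ranges were -0.061 to 0.791 for SFTPA1, -0.146 to 0.298 for SFTPC, -0.036 to 0.215 for SFTPD, -0.072 to 0.361 for LPCAT1, -0.32 to 0.436 for LAMP3, -0.111 to 0.417 for CTSH and -0.152 to 0.24 for SLC34A2. No paired analysis was possible because the groups have no replicate numbers in common. The lowest member count was 790, and precision against depth was not tested.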
